A study of Mus musculus with 6 samples.

Results

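Glycolysis splits glucose into pyruvate in the cytosol, and its enzymes are among the most abundant messages of many cells. Hexokinase traps glucose as glucose 6-phosphate, phosphofructokinase makes the committed step, aldolase and triosephosphate isomerase yield glyceraldehyde 3-phosphate, and the enzymes from GAPDH onward recover ATP and NADH before lactate dehydrogenase regenerates NAD+. In hepatocytes the pathway runs beside gluconeogenesis, and several steps have isozymes typical of liver. The 10 enzymes described here are Hk2, Gpi1, Pfkl, Aldoa, Tpi1, Gapdh, Pgk1, Pgam1, Eno1 and Ldha. They were picked by gene symbol from a table of 22564 genes, and each symbol matched 1 gene. The choice used no test on their values but was made with earlier results of these data known.

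The series holds 6 RNA sequencing libraries, which the labels give as liver from C57BL/6 males at 10 weeks of age. In 3 of them the mice had received tunicamycin, which blocks N-linked glycosylation and so causes unfolded proteins to accumulate in the endoplasmic reticulum. The dose was 0.2 mg/kg, given intraperitoneally each day over 14 days. The other 3 libraries were controls, for which no vehicle is named in the sources used here, and no label says that libraries came from separate mice. The spread between these samples, on which p-values rest, may therefore be technical. In the main test that spread came from a trend over the genes tested, not from each gene's own replicates. In bulk tissue, fewer cells of a type and less RNA per cell cannot be told apart.

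The deposited values were FPKM (fragments scaled to transcript length and library size) and an estimated count per gene. Counts were divided by the common step of their library and rounded, and these whole numbers are called reads here. They totalled 553793 to 611041 in the tunicamycin libraries and 541022 to 661145 in the controls. The table was sparse. Genes above 0 numbered 4244 to 5482 in the tunicamycin libraries and 3046 to 5095 in the controls, with the fewest in control 1, and 1124 of the 22564 genes (4.98%) were above 0 in all 6. Over all 6 libraries together, 4 Y-linked genes held 1 read and their X-linked partners 2020 reads, which goes against the label of male mice. Of 10 hepatocyte markers, 6 were listed at 0 in all 6 libraries, and albumin (Alb) was at 133, 96.3 and 127 FPKM in the tunicamycin libraries and at 231, 300.5 and 213 FPKM in the controls. The summed hepatocyte markers were 160.1 to 192 FPKM in the tunicamycin libraries and 297 to 492 FPKM in the controls. The other 3 hepatocyte markers above 0, named here after their values were seen, did not share 1 direction. Apob was at 5.34, 5.05 and 13.4 FPKM in the tunicamycin libraries and at 0.0425, 1.84 and 0.232 FPKM in the controls, the opposite direction to albumin. Fgb was at 33.7, 41.3 and 43.2 FPKM in the tunicamycin libraries and at 0, 33.2 and 76.1 FPKM in the controls. Hnf4a was at 6.99, 17.4 and 8.85 FPKM in the tunicamycin libraries and at 262, 23.9 and 7.58 FPKM in the controls, and its control 1 value made up most of the highest sum. All 6 endothelial, all 6 red blood cell and all 6 skeletal muscle markers were at 0 throughout, as were 4 of 5 Kupffer cell and 5 of 6 stellate cell markers. Among 6 cholangiocyte markers 2 were at 0 throughout, and their sum was 124 to 209 FPKM in the tunicamycin libraries and 139 to 195 FPKM in the controls. Behind that sum, Krt7 and Krt19, named here after their values were seen, differed in direction. Krt7 was at 55.6, 5.05 and 19.2 FPKM in the tunicamycin libraries and at 170, 151 and 33.1 FPKM in the controls. Krt19 was at 64.2, 78.5 and 174 FPKM in the tunicamycin libraries and at 6.46, 35.6 and 81.2 FPKM in the controls. Both overlapped between groups. The part of cell makeup in the results that follow was not tested.

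Several of these enzymes have processed pseudogenes, copies of a spliced message inserted elsewhere in the genome. A read from a stretch that 2 genes share cannot be assigned to one of them by that stretch alone. Copies were counted among the annotated transcripts of GENCODE M21 as genes matching at least 85% of bases over at least 50% of the enzyme's coding sequence. Gapdh had 251 copies, 245 of them pseudogenes, and 65 matched at least 95% of bases over at least 90% of its length. Ldha had 20 copies, Aldoa 9, Eno1 8, Tpi1 5, Pgam1 4, Pgk1 3 and Gpi1 1, while Hk2 and Pfkl had none. The share of 50-base windows of the principal transcript that also occurs in a transcript of another gene was 82.5% for Gapdh, 72.2% for Eno1, 68.0% for Pgk1 and 41.5% for Pgam1. It was 19.3% for Gpi1, 17.1% for Ldha, 13.9% for Aldoa, 7.51% for Tpi1 and at most 0.054% for Pfkl and Hk2. Over 21085 genes the median share was 0%, and 7.02% of genes exceeded 50%, so Gapdh, Eno1 and Pgk1 belong to a minority that shares most of its message. With 100-base windows the share was 78.0% for Gapdh, 67.0% for Pgk1, 59.0% for Eno1 and 39.7% for Pgam1. It fell to 4.92% for Gpi1, 1.32% for Ldha, 0.796% for Tpi1 and 0% for Aldoa, and 5.56% of genes exceeded 50%.

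The stretches that follow show how alike an enzyme and its copies are. They are coding bases 301 to 400 from GENCODE M21 (build GRCm38), 5′ to 3′, with bases that differ from the enzyme in capitals. The Gapdh stretch occurs without a change in 25 of its 251 copies, among them Gm10359, and 75 copies carry at most 3 substitutions. Gm5069 has 4 (C318G, C362T, C365G and C378T, counted from the first coding base) and is itself a gene of the deposited table. The Pgk1 stretch is unchanged in 2 of 3 copies. The Gpi1 copy Gm1840 differs by A341T and C345G, and the Ldha copy Gm5452 by G309A, G318A, G340A and A361C.
Gapdh: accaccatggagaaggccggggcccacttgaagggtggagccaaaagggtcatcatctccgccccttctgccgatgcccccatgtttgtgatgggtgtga
Gm5069: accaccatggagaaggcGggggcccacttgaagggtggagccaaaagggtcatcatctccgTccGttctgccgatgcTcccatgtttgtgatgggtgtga
Pgk1: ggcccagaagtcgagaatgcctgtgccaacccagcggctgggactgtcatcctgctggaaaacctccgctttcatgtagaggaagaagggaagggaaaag
Gpi1: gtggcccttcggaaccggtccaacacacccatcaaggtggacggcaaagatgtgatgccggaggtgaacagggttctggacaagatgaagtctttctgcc
Gm1840: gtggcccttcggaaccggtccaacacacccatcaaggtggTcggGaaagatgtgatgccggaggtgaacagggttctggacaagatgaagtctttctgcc
Ldha: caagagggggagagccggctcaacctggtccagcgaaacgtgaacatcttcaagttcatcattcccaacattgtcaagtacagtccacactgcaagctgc
Gm5452: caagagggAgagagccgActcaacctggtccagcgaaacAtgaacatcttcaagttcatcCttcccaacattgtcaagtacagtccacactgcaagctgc

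**Figure D1:**
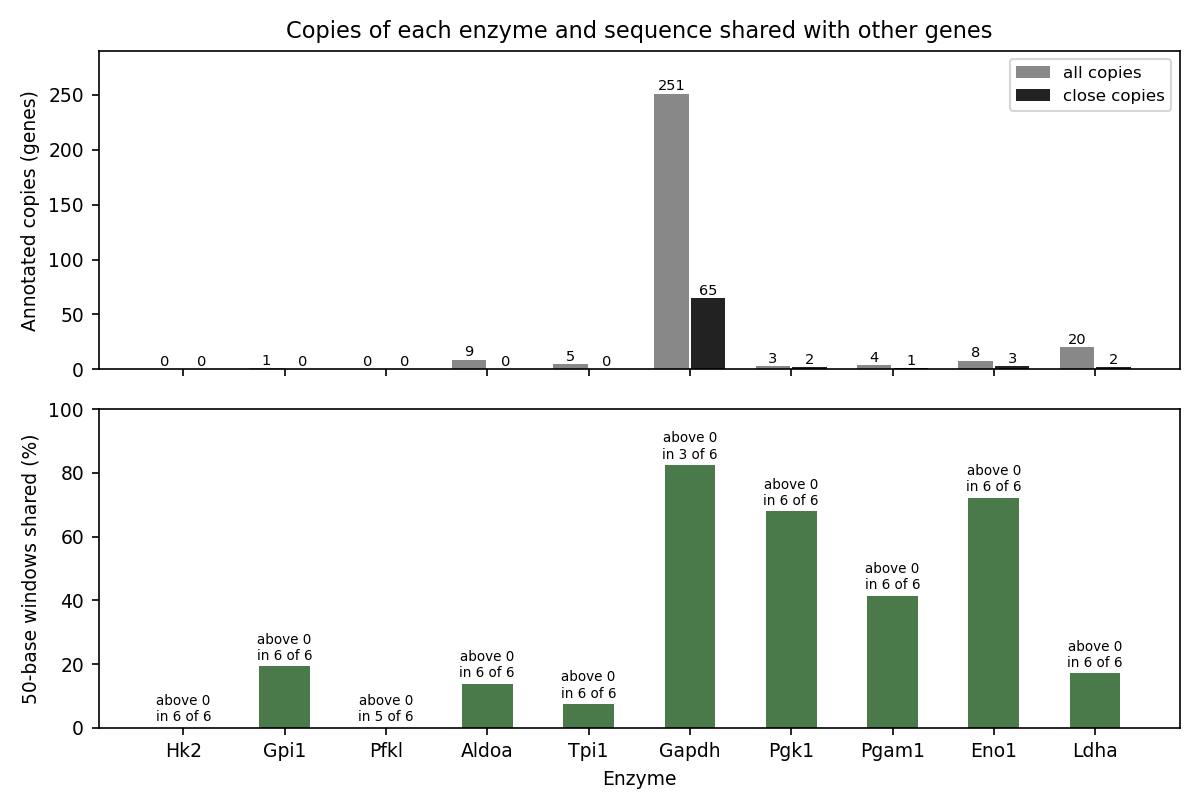
Top, annotated copies of each enzyme (grey, all copies; black, close copies, with at least 95% identity over at least 90% of the coding sequence). Bottom, percentage of 50-base windows of its principal transcript found in another gene's transcripts, with the number of libraries above 0. Gapdh stands highest in both panels, with 251 copies and 82.5%. Eno1 (8 copies, 72.2%) and Pgk1 (3 copies, 68.0%) were above 0 in all 6 libraries.

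None of the 10 enzymes passed the test between tunicamycin and control libraries. The test was limma with a variance trend, run on log2(FPKM + 1). Genes averaging 1 FPKM or more entered it, 7696 in all with the 10 enzymes among them, and a call meant a Benjamini-Hochberg adjusted p under 0.05, 2-sided. It called 5 genes, 0.065% of those tested. The enzymes' lowest adjusted p in limma was 0.852, and 0 of 10 had an unadjusted p under 0.05, as against 3.09% of the genes tested. On the reads, edgeR and DESeq2 also called 0 of 10 enzymes (DESeq2 gave no adjusted p for Gapdh), and 0.039% and 0.442% of all genes. Log2 fold changes (tunicamycin minus control) were positive for 5 enzymes and negative for 5, with a median of -0.10 that turned to 0.02 with median-of-ratios and to 0.16 with quantile scaling, beside a median of 0.10 over all genes tested. A p that misses the threshold does not show equal levels, and the 95% intervals, which come from the variance trend rather than from each gene's own replicates, ran from -5.06 to 2.68 for Gapdh and from -1.29 to 0.70 for Ldha.

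**Figure D2:**
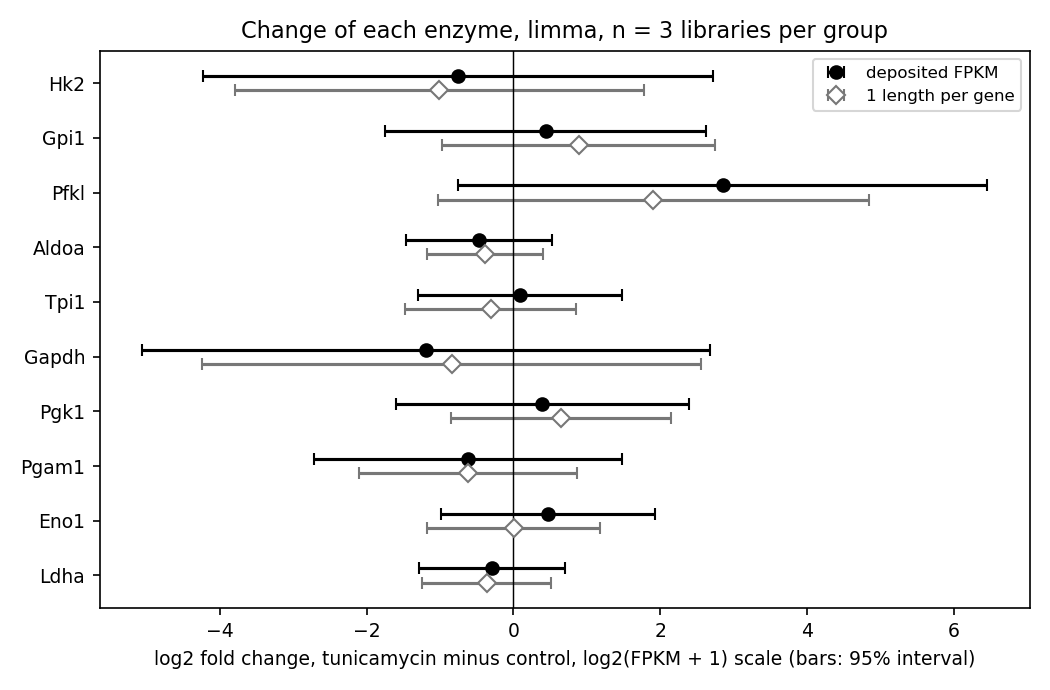
Log2 fold change of each enzyme on the log2(FPKM + 1) scale, tunicamycin minus control, with 95% limma intervals (3 libraries per group), from the deposited FPKM (black) and from counts divided by 1 transcript length per gene (open diamonds). All 10 black intervals include 0, and the widest is that of Gapdh, from -5.06 to 2.68.

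Among the steps that prepare hexose, Pfkl gave the largest difference. Pfkl (ENSMUSG00000020277, chr10:77986947-78010083, minus strand, mm10) encodes the liver-type phosphofructokinase of the committed step. Its FPKM was 25.1, 19.7 and 76.2 in the tunicamycin libraries, against 0, 5.77 and 15.3 in the controls. The groups did not overlap, which was also the case, with tunicamycin higher, for 3.03% of the genes tested. The limma log2 fold change was 2.86 (SE 1.84, adjusted p = 0.852), 1.72 without control 1, the library at 0, and 1.44 with edgeR on the reads. In reads the groups overlapped, at 174, 127 and 65 in the tunicamycin libraries and 0, 38 and 106 in the controls. Tunicamycin 3 thus had the highest FPKM on the fewest reads of its group. Reads and FPKM together implied a transcript of 488 nt there, against 3841 to 3917 nt in the other libraries with reads, and the annotated transcripts of Pfkl range from 492 to 3730 nt. With 1 length per gene in all libraries, Pfkl stood at 26.0, 20.3 and 9.97 in the tunicamycin libraries and at 0, 6.00 and 16.02 in the controls, and the groups overlapped.

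Hk2 (ENSMUSG00000000628, chr6:82725025-82774454, minus strand) encodes the inducible hexokinase that phosphorylates glucose. It was at 51.3, 14.0 and 1.26 FPKM in the tunicamycin libraries and at 18.3, 24.4 and 16.4 FPKM in the controls, from 326, 121 and 2 reads and from 85, 219 and 171 reads. The tunicamycin libraries spanned the controls on both sides, and tunicamycin 3 rested on 2 reads. limma gave a log2 fold change of -0.75 (SE 1.77, adjusted p = 0.944), and it turned to 0.46 without tunicamycin 3.

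Gpi1 (ENSMUSG00000036427, chr7:34202122-34230289, minus strand) encodes glucose-6-phosphate isomerase, which converts glucose 6-phosphate to fructose 6-phosphate. Its FPKM was 87.5, 84.2 and 86.3 in the tunicamycin libraries, against 14.5, 81.9 and 204 in the controls. The tunicamycin libraries lay close together (86.0 ± 1.70, SD, n = 3) within the wide range of the controls (100.1 ± 95.9, SD, n = 3). Reads were 319, 284 and 304 in the tunicamycin libraries and 48, 282 and 276 in the controls, so that in reads the groups did not overlap, as for 2.88% of the genes tested with tunicamycin higher. The closest pair was tunicamycin 2 and control 2. With 1 length per gene the groups also stood apart, at 61.7, 58.7 and 60.3 in the tunicamycin libraries and 10.2, 57.6 and 53.9 in the controls, as for 2.94% of genes with tunicamycin higher. Control 3 had the highest FPKM on a typical number of reads, at an implied length of 763 nt against 2011 to 2033 nt in the other 5 libraries. The limma log2 fold change was 0.44 (SE 1.12, adjusted p = 0.950), and it turned to -0.58 without control 1. Its copy Gm1840 had 15, 0 and 1 reads in the tunicamycin libraries and 0, 31 and 0 in the controls.

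The 2 enzymes that split and interconvert the trioses were above 0 in every library. Aldoa (ENSMUSG00000030695, chr7:126795234-126800751, minus strand) encodes aldolase A, the muscle-type form that cleaves fructose 1,6-bisphosphate. It was at 439, 392 and 271 FPKM in the tunicamycin libraries and at 318, 714 and 543 FPKM in the controls, on 685 to 1139 and on 751 to 1355 reads. Control 2 and control 3 exceeded every tunicamycin library and control 1 did not, so the groups overlapped. The limma log2 fold change was -0.47 (SE 0.51, 95% interval -1.47 to 0.53, adjusted p = 0.852). Aldoa had the highest mean of the 10 enzymes over all libraries, at 446 FPKM, above Ldha at 434 FPKM, a gap smaller than the spread of either.

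Tpi1 (ENSMUSG00000023456, chr6:124808661-124814296, minus strand) encodes triosephosphate isomerase, which interconverts dihydroxyacetone phosphate and glyceraldehyde 3-phosphate. It was at 245, 326 and 140.2 FPKM in the tunicamycin libraries and at 309, 108 and 278 FPKM in the controls, and the groups overlapped throughout. The group means were 237 ± 93.1 FPKM in the tunicamycin libraries and 232 ± 108 FPKM in the controls (SD, n = 3 each). Reads were 282, 560 and 380 in the tunicamycin libraries and 783, 285 and 483 in the controls. Control 1 held the most reads and control 2 nearly the fewest. The limma log2 fold change was 0.09 (SE 0.71, adjusted p = 0.999), turned to -0.18 without tunicamycin 2 and to -0.39 without control 2, and was -0.31 with 1 length per gene.

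Gapdh (ENSMUSG00000057666, chr6:125161853-125166467, minus strand), which oxidises glyceraldehyde 3-phosphate and is often used as a reference gene, varied most of the 10. It was at 0, 151 and 0 FPKM in the tunicamycin libraries and at 0, 1.83 and 633 FPKM in the controls. Its reads were 0, 106 and 0 in the tunicamycin libraries and 0, 1 and 465 in the controls. Tunicamycin 2 and control 3 thus held nearly all of its reads, and Gapdh was the highest of the 10 enzymes in control 3. At 0 reads the upper limit (3 reads per library) was 0.000491% of reads in tunicamycin 1, 0.000504% in tunicamycin 3 and 0.000555% in control 1. These limits cover counting error only, since reads copied from 1 molecule are not independent. The coefficient of variation over the 6 libraries was 193%, against 17.3% for Actb, the cytoskeletal actin, which lay between 1176 and 1935 FPKM. Its log2 fold change in limma was -1.19 (SE 1.98, adjusted p = 0.899). It was 0.02 without tunicamycin 1 or without tunicamycin 3 and 1.66 without control 3, so the sign rested on single libraries.

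The lengths behind the Gapdh values were short. Reads and FPKM implied 420 nt in tunicamycin 2 and 322 and 414 nt in control 2 and control 3, whereas the principal Gapdh transcript has 1420 nt and the annotated ones range from 358 to 3289 nt. At the principal length, Gapdh would stand at 44.5 in tunicamycin 2 and at 185 in control 3 on the FPKM scale. Of the 251 copies, 6 were genes of the table, and together they held 1 read in tunicamycin 1 (Gm5069) and 1 read in control 1 (Gm3839). The other copies were not analysed here, and whether reads shared with them account for the values at 0 was not tested. Eno1 and Pgk1, with 72.2% and 68.0% of their windows shared but only 8 and 3 copies, had reads in all 6 libraries.

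Values at 0 were rare among genes that reached the highest value of Gapdh in some library. Of 234 genes that reached its 465 reads, 3 had 0 reads in at least 3 libraries, Gapdh among them. Of 59 genes that reached its highest FPKM, Gapdh alone was at 0 in at least 3. Both cutoffs were taken from the highest library of Gapdh, which held 572 reads over all 6. Genes of a like total were not compared. Another 74 genes were above 0 in exactly the same 3 libraries as Gapdh, but genes of other sets of 3 libraries were not counted for comparison. The nearest in log2(FPKM + 1) over the 6 libraries, by Euclidean distance, were Hars2 (distance 2.75), a mitochondrial histidyl-tRNA synthetase, Mrps23 (2.83), a mitochondrial ribosomal protein, and Slc8b1 (3.72), a mitochondrial sodium-calcium exchanger. Hars2 was at 0, 210.1 and 0 FPKM in the tunicamycin libraries and at 0, 0 and 132 FPKM in the controls, on at most 88 reads.

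The 3 enzymes between GAPDH and pyruvate kinase were above 0 in every library. Pgk1 (ENSMUSG00000062070, chrX:106187100-106203699, plus strand) encodes phosphoglycerate kinase, which makes the first ATP of the pathway. It was at 102, 106 and 115 FPKM in the tunicamycin libraries, against 64.4, 99.7 and 84.5 FPKM in the controls, and its reads were 317, 305 and 345 against 181, 301 and 146. The groups did not overlap in either measure, as in FPKM, with tunicamycin higher, for 3.13% of the genes tested that were above 0 in all 6, and the margins between tunicamycin and control were narrow. With 1 length per gene they overlapped, since the control 2 value of 97.2 exceeded the tunicamycin 1 value of 96.9. The means were 107 ± 6.62 FPKM in the tunicamycin libraries and 82.9 ± 17.8 FPKM in the controls (SD, n = 3 each), and limma gave a log2 fold change of 0.39 (SE 1.02, adjusted p = 0.950). Over the 6 libraries Pgk1 had the second lowest variation of the 10, at 19.0%.

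Pgam1 (ENSMUSG00000011752, chr19:41911871-41918664, plus strand) encodes phosphoglycerate mutase, which moves the phosphate of 3-phosphoglycerate. It was at 31.7, 93.0 and 97.3 FPKM in the tunicamycin libraries and at 53.9, 124 and 158 FPKM in the controls, on 103, 279 and 305 reads and on 158, 381 and 507 reads. Each group had 1 low library. Tunicamycin 1 lay below every control, and the groups overlapped through control 1, which lay below tunicamycin 2 and tunicamycin 3. In limma the log2 fold change was -0.62 (SE 1.07, adjusted p = 0.905). The implied length was nearly constant, 1788 to 1814 nt, close to the principal transcript of 1775 nt.

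Eno1 (ENSMUSG00000063524, chr4:150236721-150248879, plus strand) encodes enolase 1, which forms phosphoenolpyruvate. It was at 136, 567 and 158 FPKM in the tunicamycin libraries and at 278, 162 and 102 FPKM in the controls, with tunicamycin 2 far above the rest. Reads were 494, 720 and 410 in the tunicamycin libraries and 739, 502 and 366 in the controls, so that tunicamycin 2 and control 1 held like numbers of reads. The implied length was 757 nt in tunicamycin 2 and up to 2031 nt elsewhere. The limma log2 fold change was 0.47 (SE 0.74, adjusted p = 0.888), turned to -0.18 without tunicamycin 2 and was 0.00 with 1 length per gene.

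Ldha (ENSMUSG00000063229, chr7:46841475-46855627, plus strand) encodes the A subunit of lactate dehydrogenase, which reduces pyruvate to lactate. It was at 485, 332 and 358 FPKM in the tunicamycin libraries and at 454, 442 and 531 FPKM in the controls, on 584 to 995 and on 872 to 1135 reads. Tunicamycin 1 lay among the controls and the other 2 tunicamycin libraries below them. The means were 392 ± 81.9 FPKM in the tunicamycin libraries and 476 ± 48.2 FPKM in the controls (SD, n = 3 each), with a limma log2 fold change of -0.29 (SE 0.51, adjusted p = 0.904) that was 0.02 with quantile scaling. Ldha varied least of the 10 over the 6 libraries, by 17.4%, and was the highest of them in tunicamycin 1, tunicamycin 3 and control 1.

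**Figure D3:**
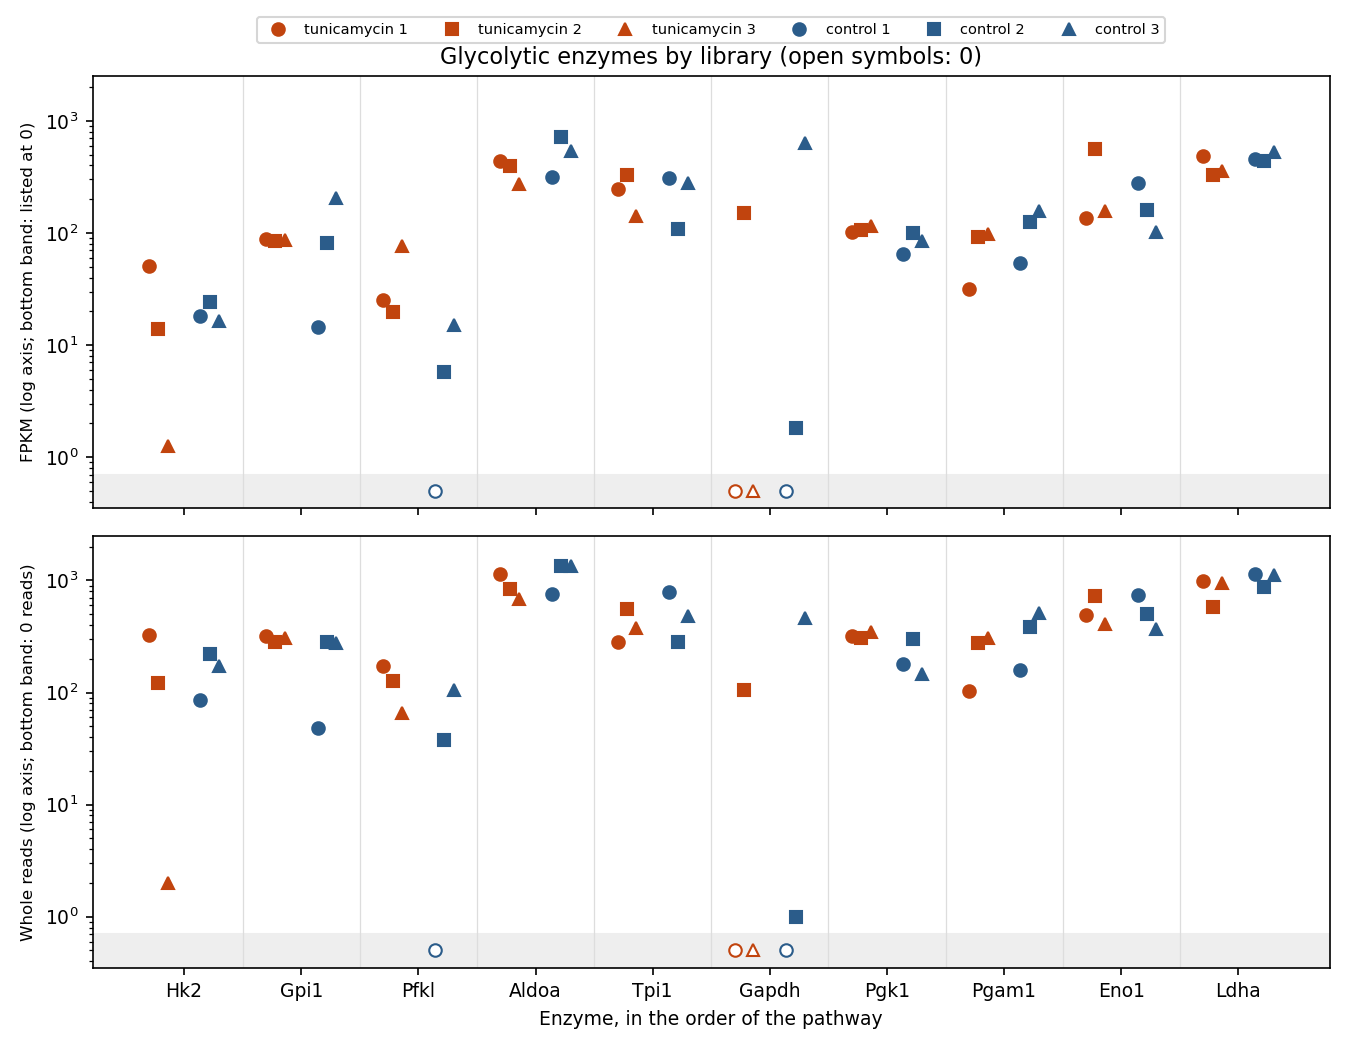
FPKM (top) and reads (bottom) of the 10 enzymes in each library on log axes, tunicamycin in orange and control in blue, with open symbols in the grey band for values of 0. Gapdh is at 0 in 3 libraries and at 633 FPKM in control 3, while Ldha and Aldoa are high in all 6.

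FPKM did not overlap between groups for 2 of the 10 enzymes (Pfkl and Pgk1), beside 5.74% of the genes tested, and reads did not for 2 (Gpi1 and Pgk1), beside 5.39%. Across the 10 enzymes, 4 of 60 values were at 0, 3 of them of Gapdh and 1 of Pfkl, and 2 more rested on fewer than 10 reads. The enzymes together summed to 1602, 2083 and 1303 FPKM in the tunicamycin libraries and to 1511, 1763 and 2564 FPKM in the controls. Their share of reads was 0.679%, 0.709% and 0.580% in the tunicamycin libraries and 0.717%, 0.734% and 0.755% in the controls. The share of each tunicamycin library was below that of each control, but the exact 95% binomial intervals overlapped in 3 pairs, tunicamycin 2 (0.687% to 0.731%) with control 1 (0.695% to 0.740%) and control 2, and tunicamycin 1 with control 1. These intervals cover counting error only. Gapdh made up 0.0703% of all reads in control 3 and 0.0191% in tunicamycin 2. Without Gapdh, control 3 lay below tunicamycin 2, so the separation of the groups did not hold without that enzyme. Gapdh was not the only such enzyme. Tpi1 held 783 reads in control 1 and 282 in tunicamycin 1, and without Tpi1 the share of control 1 lay below that of tunicamycin 1. For 3 of the 10 enzymes the ratio of group means (tunicamycin over control) lay on opposite sides of 1 in FPKM and in reads per library total. Implied lengths differed between libraries by factors from 1.01 for Pgam1 to 8.03 for Pfkl.

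**Figure D4:**
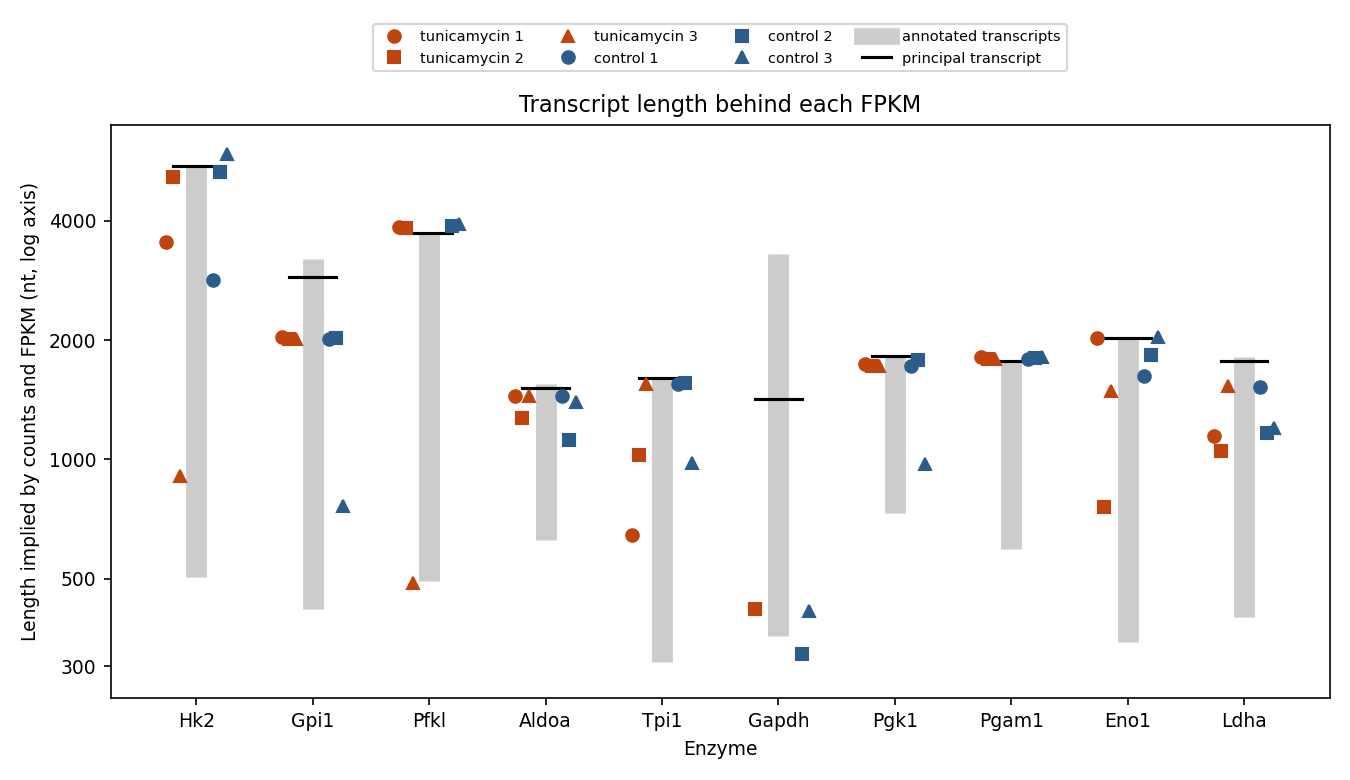
Transcript length (nt, log axis) implied by counts and FPKM for each enzyme in each library with reads, beside the range of annotated transcripts (grey bar) and the principal transcript (black line). Pgam1 stays at 1788 to 1814 nt, while Pfkl drops to 488 nt in tunicamycin 3 and Gapdh never exceeds 420 nt.

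Many other isozymes of these steps were listed at 0. Of 18 examined, 9 were at 0 in all 6 libraries, including Ldhb, the B subunit of lactate dehydrogenase. The others at 0 were Hk3, Hkdc1, Gapdhs, Pgk2, Pgam2, Eno2, Eno4 and Ldhc. Pklr, the liver pyruvate kinase, was at 10.0 FPKM in control 3 and at most 0.077 FPKM elsewhere. Pkm, the pyruvate kinase of muscle and proliferating cells, was above 0 throughout, at 166, 106 and 127 FPKM in the tunicamycin libraries and at 74.7, 282 and 164 FPKM in the controls. Eno3, the muscle enolase, was at 47.9, 118 and 344 FPKM in the tunicamycin libraries and at 23.9, 192 and 22.2 FPKM in the controls. Both overlapped between groups. Hk1, the widespread hexokinase, was at 26.2, 143 and 10.8 FPKM in the tunicamycin libraries and at 0, 34.8 and 61.5 FPKM in the controls. Pfkm, Pfkp, Aldoc, Adpgk and Bpgm were each at 0 in at least 2 libraries. None of the 9 isozymes tested was called by limma.

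**Figure D5:**
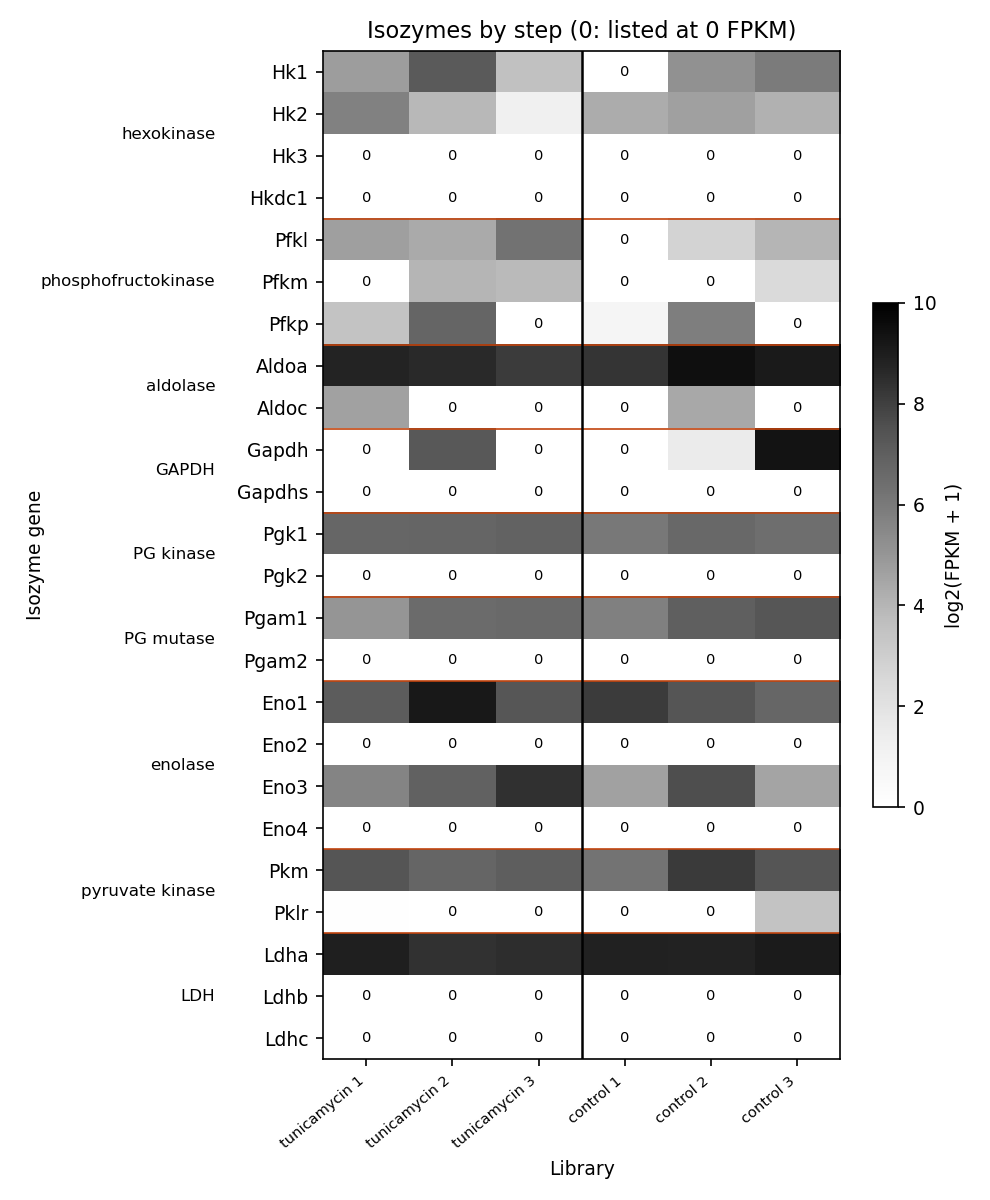
Level of the glycolytic isozymes by library as log2(FPKM + 1) in grey scale, tunicamycin libraries left of the line and controls right, with 0 marking values listed at 0. Aldoa and Ldha are dark in all 6 libraries, while Ldhb and 8 other isozymes are at 0 throughout.

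Neighbouring pathways gave no calls in limma either. Of 51 genes tested in 7 lists, 2 had an unadjusted limma p under 0.05, beside 3.09% of all genes tested. In limma, edgeR or DESeq2, 0 of the 51 passed the threshold. Their limma log2 fold changes were positive for 22 and negative for 29, with a median of -0.14. Ugp2, which makes UDP-glucose for glycogen, was at 41.3, 150.4 and 94.96 FPKM in the tunicamycin libraries and at 0, 76.8 and 0.204 FPKM in the controls and had a limma adjusted p of 0.852, beside 0.0122 before adjustment. Mlx, the partner of the glucose-responsive factor ChREBP, was at 52.9, 0 and 0 FPKM in the tunicamycin libraries and at 175, 40.9 and 113 FPKM in the controls and had a limma adjusted p of 0.852, beside 0.00637 before adjustment. Both overlapped between groups. Hif1a, a hypoxia factor that drives many glycolytic genes, was at 43.4, 37.5 and 127 FPKM in the tunicamycin libraries and at 0, 18.9 and 21.0 FPKM in the controls, at a limma adjusted p of 0.852. Its FPKM did not overlap between groups, as for 3.03% of genes with tunicamycin higher, but its reads did, at 240, 274 and 186 in the tunicamycin libraries and 0, 127 and 187 in the controls. The lactate transporter chaperone Bsg was at 71.6, 122 and 167 FPKM in the tunicamycin libraries and at 427, 147 and 218 FPKM in the controls, overlapping. The glucose transporter Slc2a1 was at 12.4, 47.2 and 58.9 FPKM in the tunicamycin libraries and at 14.8, 48.7 and 65.2 FPKM in the controls, with library 1 low in both groups. Dlat, a subunit of the pyruvate dehydrogenase complex, was at 35.1, 15.6 and 2.05 FPKM in the tunicamycin libraries and at 38.4, 36.6 and 53.2 FPKM in the controls, at a limma adjusted p of 0.852. Its FPKM did not overlap, as for 5.74% of genes in either direction, but its reads did, at 72, 109 and 15 in the tunicamycin libraries and 264, 42 and 141 in the controls. For the other genes with the highest means of their lists, the groups overlapped. They were Slc16a1 of lactate transport, Mdh2, Mdh1 and G6pc3 of gluconeogenesis, and Pdk1 and Pdk2 of pyruvate oxidation. Also among them were G6pdx, Taldo1 and Tkt of the pentose phosphate pathway, Pygb and Pgm1 of glycogen and the regulator Myc. Pfkfb2 and Pfkfb3 of fructose 2,6-bisphosphate were above 0 in tunicamycin 1 only (10.6 and 0.110 FPKM), so their overlap was a tie at 0.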

How the data were processed

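The authors deposited FPKM and estimated counts for each gene. Per the submitters' processing notes, CASAVA 1.8, cutadapt 1.9.3, HISAT2 2.0.4, Cuffdiff and Cufflinks (version not given in the sources used here) were used with mm10; per the labels, libraries were stranded, paired-end and depleted of ribosomal RNA. In each library, 94.8% to 95.4% of counts above 0 were whole multiples of a step of 0.995 to 1.095 (within 0.01), and all were divided by it and rounded; how the authors scaled them is not given in the sources. 1 emptied line was not analysed here, and some isozymes are not reported here.

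Groups came from the sample labels. limma 3.58.1 (R 4.3.3) was run on log2(FPKM + 1) with group as the only term. Its variance prior had infinite degrees of freedom. edgeR 4.0.16 (quasi-likelihood, TMM) and DESeq2 1.42.0 were run on the rounded estimated counts as alternatives. Fits were tested on simulated data. Implied length is count per FPKM, scaled by 140 to 274 single-transcript genes of the library. Copies were found with BLAST 2.17.0 (Python 3.11.15) among annotated transcripts of the same build; gene positions are those of the deposited table.

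The enzymes, the lists and the tests were chosen with earlier results of these data known. Named genes are the 10 enzymes, other isozymes above 0, up to 3 genes with the highest mean FPKM in each pathway list, the 3 genes nearest to Gapdh, Alb and Actb. Alternatives covered the pseudocount, filters, scaling, variance trend, replicate block, each library left out and the unit tested; 1 length per gene was chosen after seeing the data.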

Additional observations from a re-analysis of the deposited data

How the results depend on the processing

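No enzyme and no gene of the pathway lists passed the threshold under any of the 16 alternatives, and 146 of 160 changes of single enzymes kept their direction; Pfkl, Aldoa, Pgk1 and Pgam1 did so in all 16. The lowest adjusted p of any enzyme was 0.670. The number of genes called, 5 as reported, was 0 without a filter, 2 at a mean FPKM of at least 5, 0 without the variance trend and 0 with the replicate block; edgeR called 3 and DESeq2 34. Leaving out 1 library gave 0 to 7. Same-numbered libraries did not deviate together (correlations -0.014 to 0.0023), so the numbers were not taken to pair them. Directions turned for Tpi1 (-0.18 with edgeR, -0.37 with DESeq2, -0.31 with 1 length per gene), Eno1 (-0.016 with DESeq2), Hk2 (0.065 with edgeR) and Ldha (0.016 with quantile scaling). Leaving out 1 library, log2 fold changes ran from -3.60 to 1.66 for Gapdh, -1.81 to 0.46 for Hk2, -0.58 to 1.28 for Gpi1, -0.18 to 0.85 for Eno1 and -0.39 to 0.42 for Tpi1, each of which changed sign. The cause was not tested. The median over all genes tested was 0.10 as reported, 0.15 with median-of-ratios scaling and 0.12 with quantile scaling. Of the enzyme values above 0, Hk2 in tunicamycin 3 (2 reads) and Gapdh in control 2 (1 read) rested on the fewest reads. Among genes with at least 3 reads, the smoothed distribution of reads on a log scale peaked at 40.3 to 139 reads per gene, by library. Gpi1 (48 reads) and Hk2 (85 reads) lay below this peak in control 1, where it was 139. Pfkl did so in tunicamycin 3 (65 against 70.8) and control 2 (38 against 46.2). Over the genes tested, log2(FPKM + 1) of libraries correlated at 0.279 to 0.347 within groups and 0.272 to 0.375 between groups.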

Other observations

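2 further genes, named after their values were seen, combined high and absent reads as Gapdh did. Mcm5, a replication helicase subunit, had 79, 0 and 150 reads in the tunicamycin libraries and 578, 0 and 0 in the controls. Cycs, somatic cytochrome c, had 0, 0 and 0 reads in the tunicamycin libraries and 581, 53 and 0 in the controls. Their highest library was control 1 in both cases, where Gapdh had 0 reads.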
